A study of Mus musculus with 8 samples.

Results

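Gzma-high CD8 T cells are tumour-infiltrating cells that carried many transcripts of granzyme A, a serine protease of cytotoxic granules. They were taken from 4 single-cell expression libraries of CD8 T cells purified from palpable tumours of MC38 (a murine colon cancer line) in wild-type C57BL/6 mice. A barcode counted as Gzma-high when it had at least 10 Gzma UMIs (unique molecular identifiers, 1 per captured transcript) and passed a gate for non-cycling CD8 T cells. The gate asked for at least 500 detected genes, mitochondrial UMIs under 10%, at least 1 UMI of Cd8a or Cd8b1 and at least 1 of Cd3d, Cd3e or Cd3g. It also asked for no Cd4 UMI, at most 1 UMI summed over Lyz2, C1qa, C1qb and C1qc, at most 1 over Mki67 and Top2a, and fewer than 5 over Gzmc, Gzmd, Gzme and Gzmf. The rule found 2321 Gzma-high cells among 18143 gate cells and 36011 barcodes in all. The other gate cells, with fewer than 10 Gzma UMIs, were the cells they were compared with.

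The treated mice of experiment 1 were given rhIL-7-hyFc, a recombinant human interleukin-7 fused to an Fc domain, subcutaneously at 10 mg/kg, and the others buffer. Tumours of the mice given rhIL-7-hyFc were collected on day 7 after treatment. The mice of experiment 2 were given rhIL-7-hyFc at 1.25 mg/kg together with an intravenous bispecific T cell engager (TCE) that binds mouse PD-L1 and CD3ε, or that dose of rhIL-7-hyFc alone, with tumours collected 24 hours after the final dose. TCE dosing followed rhIL-7-hyFc by 3 days. CD8 T cells were enriched with magnetic beads in experiment 1 and sorted as CD45+ TCRβ+ CD8α+ cells in experiment 2, and each group is 1 expression library with a matched T cell receptor (TCR) library. How many mice stand behind a library is not stated in the labels, so no value below carries an animal-to-animal error, and intervals cover counting error only.

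Granzyme A and granzyme B are released with perforin from the granules of cytotoxic lymphocytes into a target cell, where they cleave proteins and trigger death. Granzyme K is a related protease, and the Gzma and Gzmk genes lie next to each other on mouse chromosome 13. KLRG1 is an inhibitory lectin receptor found on terminal effector CD8 T cells, whereas TCF-1 (Tcf7) marks naive and memory cells, and PD-1 (Pdcd1) and TOX mark chronically stimulated ones.

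Gzma-high cells were most common where the TCE had been given. They made up 1786 of 6587 gate cells (27.1%, exact Clopper-Pearson 95% interval 26 to 28.2%) in the combination library and 165 of 5225 (3.16%, 2.70 to 3.67%) in the library of rhIL-7-hyFc at 1.25 mg/kg alone. In experiment 1 they made up 252 of 4555 gate cells (5.53%, 4.89 to 6.24%) with rhIL-7-hyFc at 10 mg/kg and 118 of 1776 (6.64%, 5.53 to 7.90%) with buffer. The ratio of the shares was 8.59 (7.32 to 10.1) in experiment 2, with no overlap of the intervals, and 0.833 (0.667 to 1.05) in experiment 1. With 1 library per group neither ratio has a replicate check. Counting each clonotype once raised the ratio of experiment 2 to 14.6, and a threshold of 1000 Gzma CPM lowered it to 5.19. In experiment 1 the direction turned with the threshold, with a ratio of 1.08 at 5 Gzma UMIs and 0.496 at 20.

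**Figure D1:**
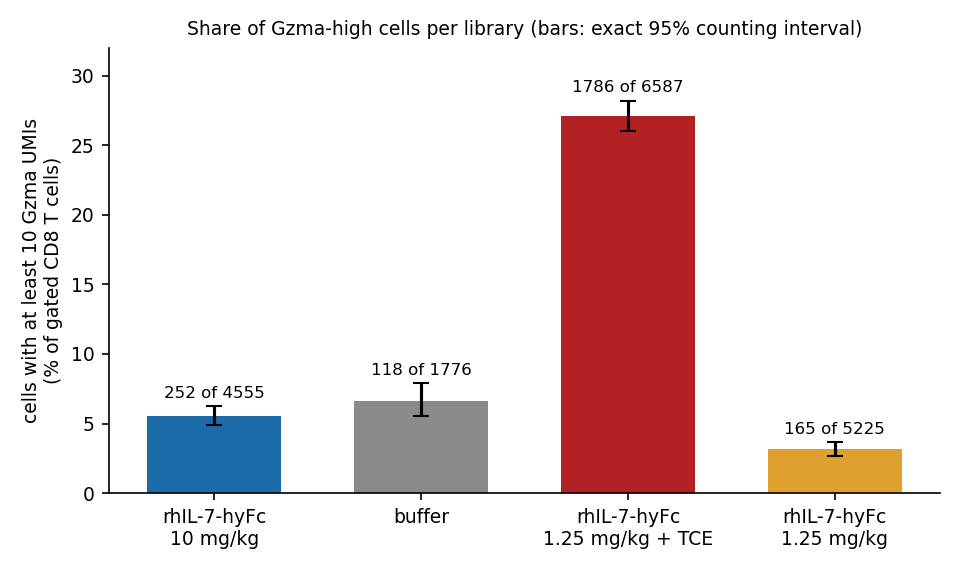
Share of gate cells that were Gzma-high in each library (vertical axis, percent of gate cells), with bars for exact 95% binomial intervals, which cover counting error only. The combination library stands at 27.1% and the other 3 libraries lie between 3.16% and 6.64%.

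The amount of Gzma per cell differed as well. The median Gzma-high cell held 68 Gzma UMIs (highest cell 513) in the combination library and 18 (highest 157) with rhIL-7-hyFc at 1.25 mg/kg alone. It held 16 (highest 202) with rhIL-7-hyFc at 10 mg/kg and 27 (highest 148) with buffer. Gzma-high cells of the 10 mg/kg library therefore sat close to the threshold of 10, and those of the combination library far above it. These Gzma values chose the cells and are given as a description.

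Sequencing depth differed most between the classes in the combination library, where the median cell held 7282 UMIs if Gzma-high and 5311 if not. Elsewhere median UMIs per cell were 9699 in Gzma-high and 9165 in other gate cells with 10 mg/kg, 5812 and 6643 with buffer, and 5012 and 4959.5 with 1.25 mg/kg. When cells were thinned to 4000 UMIs and the threshold set at 5 Gzma UMIs, the shares were 31.1% with the combination and 4.0% with 1.25 mg/kg, and 4.80% with 10 mg/kg and 8.28% with buffer. Cells with fewer than 4000 UMIs in the genes used were left out before thinning. With 1.25 mg/kg these were 56 of 165 Gzma-high and 1318 of 5060 other gate cells. They were 128 of 1786 and 1019 of 4801 with the combination. With buffer they were 17 of 118 and 466 of 1658, and with 10 mg/kg 1 of 252 and 199 of 4303. All thinned values below rest on the cells kept. Myeloid barcodes were counted as a background for free RNA, whose part in the Gzma-high calls was not tested otherwise. Among myeloid barcodes without CD8 or CD3 transcripts, 0 of 64 reached 10 Gzma UMIs in the combination library (a count of 0, taken as at most 3 counts of the total, allows up to 4.69%) and 6 of 582 (1.03%, the highest with 188 Gzma UMIs) in the 1.25 mg/kg library, while 0 of 105 did in the 10 mg/kg library (up to 2.86%) and 0 of 61 in the buffer library (up to 4.92%). Between 45 and 195 barcodes were shared by pairs of libraries, of which 0 to 3 were Gzma-high in both.

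The effector label fitted these cells unevenly. After thinning to 4000 UMIs, a Klrg1 UMI was seen in 10.0% of Gzma-high cells with the combination, 6.42% with 1.25 mg/kg, 1.59% with 10 mg/kg and 20.8% with buffer. In other gate cells these shares were 0.820%, 0.241%, 0.122% and 1.76% in the same order, and no myeloid barcode had one. A Gzmb UMI was seen in 95.4 to 98.3% of Gzma-high cells of the 4 libraries, against 62.7 to 84.1% of other gate cells and 0 to 29.8% of myeloid barcodes, so that a Gzmb UMI was frequent in both classes. A Tcf7 UMI was seen in 30.7% of Gzma-high cells with 10 mg/kg and 12.9% with buffer, and in 5.19% with the combination and 24.8% with 1.25 mg/kg. In other gate cells the Tcf7 share was 24.0 to 47.6%, and in myeloid barcodes 0 to 1.01%. A Pdcd1 UMI was seen in 27.9% of Gzma-high cells with the combination and in 52.3% with 1.25 mg/kg, and in 6.37% with 10 mg/kg and 50.5% with buffer. In other gate cells the Pdcd1 share was 53.3%, 32%, 5.90% and 48.6% in the same order, and in myeloid barcodes 0 to 2.13%. The name Gzma-high is used below for this reason.

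Markers of other lineages were mostly low in the gate. Of the T cell markers, 13 of 13 tested genes had a positive fold change in Gzma-high cells (median log2 fold change 0.19). Over all genes tested, 4739 of 10929 were positive. Of the 13 T cell markers, 2 were higher in all 4 libraries. Their median log2 ratio, Gzma-high over other, was -0.002 with 10 mg/kg, 0.28 with buffer, 0.21 with the combination and 0.10 with 1.25 mg/kg. Of the macrophage and monocyte markers, 0 of 17 tested passed the test described below in either direction. Their summed level ranged from 3339 to 4763 CPM (counts per 1000000 UMIs) in Gzma-high cells and from 3036 to 5807 CPM in other gate cells, most of it Ly6c2, which CD8 T cells also express. The defining macrophage gene Adgre1 was at 0 in Gzma-high cells of 2 libraries and at most 3.14 CPM in the others. Cd74 of the same list was higher, at 27.8, 161, 41.0 and 160 CPM in Gzma-high cells of the 10 mg/kg, buffer, combination and 1.25 mg/kg libraries. In other gate cells Cd74 had 27.5, 1035, 82.2 and 311 CPM. Of the 17 macrophage and monocyte markers, 7 had a positive fold change, and 2 were higher and 3 lower in all 4 libraries. The natural killer cell marker Ncr1 had 2.63, 6.43, 0.0719 and 2.09 CPM in Gzma-high cells of the 10 mg/kg, buffer, combination and 1.25 mg/kg libraries. In other gate cells Ncr1 had 0.148, 1.68, 0.110 and 0.0368 CPM. Of 11 natural killer cell markers tested, 8 had a positive fold change (median log2 fold change 0.44) and 1 passed as higher (Gzmb). The B cell marker Ms4a1 was at 0 in Gzma-high cells of all 4 libraries. Immunoglobulin transcripts were present in both classes. Igkc, the kappa constant region, had 29.3, 19.3, 0.575 and 6.27 CPM in Gzma-high cells of the 10 mg/kg, buffer, combination and 1.25 mg/kg libraries, against 0.518, 9.48, 3.33 and 6.62 CPM in other gate cells. Ighm, the mu heavy chain, had 132, 37.3, 65.1 and 32.4 CPM in Gzma-high cells, against 127, 70.8, 42.0 and 71.6 CPM in other gate cells. Neither gene passed, and their part in the results was not tested. Dendritic cell transcripts were mostly in the other class, as given below.

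Which genes went with Gzma was tested across the 4 libraries. UMI counts were summed per library and class, and edgeR's quasi-likelihood test compared the classes with the library as a block, leaving out the 17 genes the gate and threshold had used. CPM were taken over the UMIs of that class in that library. Of 10929 genes tested, 35 were higher (0.32%) and 26 lower (0.238%) in Gzma-high cells at an adjusted p under 0.05. A further background is the count with the same sign in every library, which was 785 genes higher (7.18%) and 1845 lower (16.9%), and the median log2 fold change of all genes was -0.04.

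Granule genes were among the higher genes. Of 24 granule genes tested, 4 passed as higher (Gzmb, Gzmk, Serpinb9 and Serpinb6b) and 0 as lower. Their median log2 fold change was 0.22, and 9 were higher and 2 lower in all 4 libraries. Gzmk had 67.3, 523, 400 and 223 CPM in Gzma-high cells of the 10 mg/kg, buffer, combination and 1.25 mg/kg libraries, against 10.7, 137, 54.6 and 27.9 CPM in other gate cells of those libraries. Within every library Gzmk was higher in Gzma-high cells, by a log2 fold change of 2.65 (SE 0.16, edgeR adjusted p 5.19e-05). Gzma-high cells with 10 mg/kg nonetheless had less Gzmk than buffer cells outside the class.

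Gzmb encodes granzyme B. It had 4529, 8966, 6468 and 4822 CPM in Gzma-high cells of the 10 mg/kg, buffer, combination and 1.25 mg/kg libraries, against 1899, 2731, 1252 and 1511 CPM in other gate cells. The 2 classes did not overlap in Gzmb, with a log2 fold change of 1.79 (SE 0.17, edgeR adjusted p 0.0121). The call was lost without the buffer library, without the 1.25 mg/kg library and at a threshold of 5 Gzma UMIs, with the same direction each time. Serpinb9, an inhibitor of granzyme B, had a log2 fold change of 0.59, and Serpinb6b, another intracellular serpin, had a log2 fold change of 0.84 (SE 0.099, edgeR adjusted p 0.00358). The CPM of Serpinb6b in Gzma-high cells was 395, 559, 452 and 426 in the 10 mg/kg, buffer, combination and 1.25 mg/kg libraries, against 222, 363, 228 and 252 in other gate cells.

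Perforin, which opens the target membrane for granzymes, did not pass. Prf1 had 54.1, 392, 133 and 292 CPM in Gzma-high cells of the 10 mg/kg, buffer, combination and 1.25 mg/kg libraries, against 70.6, 356, 132 and 146 CPM in other gate cells (log2 fold change 0.23, SE 0.18, edgeR adjusted p 0.679). The classes differed by a wide margin in the 1.25 mg/kg library alone. Nkg7, a granule membrane protein needed for degranulation, had a log2 fold change of 0.26 (SE 0.093, edgeR adjusted p 0.249) and was higher in all 4 libraries. Gzmm, another granzyme, had 174, 56.6, 31.6 and 57.5 CPM in Gzma-high cells, against 174, 14.5, 16.0 and 65.2 CPM in other gate cells, in the order 10 mg/kg, buffer, combination and 1.25 mg/kg (edgeR adjusted p 0.638).

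Gzma spans 13:113093825-113100981 on the minus strand of GRCm38, and Gzmk spans 13:113171608-113225908 on the same strand, 70627 bp away. Esm1, an endothelial proteoglycan gene at 13:113209659-113218098 on the plus strand, lies within the Gzmk span and also passed the test (log2 fold change 2.90, edgeR adjusted p 0.0121). It rested on 2, 13, 20 and 6 UMIs in Gzma-high cells of the 10 mg/kg, buffer, combination and 1.25 mg/kg libraries, against 5, 25, 6 and 19 UMIs in other gate cells. The Esm1 call was lost without the buffer library and without the 1.25 mg/kg library. It was also lost when barcodes with a UMI of dendritic cell or MHC class II genes were left out. The call is therefore uncertain, and whether it holds reads of Gzmk was not tested.

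Effector genes other than granzymes were mixed. Of 28 genes of effector differentiation tested, 3 passed as higher (Klrg1 and Il12rb2 among them) and 0 as lower, with a median log2 fold change of 0.27 and 10 higher and 1 lower in all 4 libraries. Klrg1 had the largest fitted fold change of all genes called higher. Its CPM in Gzma-high cells was 4.89, 86.1, 42.4 and 37.6 in the 10 mg/kg, buffer, combination and 1.25 mg/kg libraries, against 0.321, 7.80, 3.47 and 1.51 in other gate cells (log2 fold change 3.86, SE 0.21, edgeR adjusted p 5.91e-06). Il12rb2, a chain of the interleukin-12 receptor, had a log2 fold change of 0.80 (edgeR adjusted p 0.0371). Its CPM was 150, 186, 129 and 187 in Gzma-high cells, against 79.0, 89.7, 112 and 96.2 in other gate cells, in that order of libraries. Effector transcription factors did not pass. Of 32 transcription factors of CD8 T cells, 0 passed in either direction (median log2 fold change 0.17), with edgeR adjusted p of 0.916 for Tbx21, 0.649 for Zeb2 and 0.188 for Eomes.

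Zbtb32, Slamf7 and Il2ra also passed. Zbtb32, a transcriptional repressor induced on activation, had 31.9, 145, 71.7 and 96.2 CPM in Gzma-high cells of the 10 mg/kg, buffer, combination and 1.25 mg/kg libraries, against 9.25, 69.8, 27.7 and 28.0 CPM in other gate cells (log2 fold change 1.52, SE 0.13, edgeR adjusted p 0.000255). Slamf7, a SLAM family receptor, had a log2 fold change of 0.94 (SE 0.097, edgeR adjusted p 0.00132). Its CPM ranged from 151 to 188 in Gzma-high cells and from 82.1 to 105 in other gate cells. Il2ra, the interleukin-2 receptor alpha chain, had 31.9, 79.7, 75.9 and 95.1 CPM in Gzma-high cells, against 19.3, 50.1, 52.9 and 32.5 CPM in other gate cells (log2 fold change 0.88, edgeR adjusted p 0.0275). Of 20 response genes of IL-7 and STAT5 signals 1 passed as higher (Il2ra), and the list's median log2 fold change was 0.01. Anxa1, annexin A1, was the single called gene among 32 genes of the S100, annexin and motility list (log2 fold change 1.20, SE 0.18, edgeR adjusted p 0.0145), whose median was 0.29.

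A few interferon-response genes were higher. Of 39 genes of the type I interferon response tested, 2 passed as higher (Ifit2 and Phf11b) and 0 as lower, while 17 were higher and 1 lower in all 4 libraries and the median log2 fold change was 0.31. The list's median log2 ratio, Gzma-high over other, was 0.47 with 10 mg/kg and 0.37 with buffer. In experiment 2 it was 0.02 with the combination and 0.10 with 1.25 mg/kg. Ifit2, an interferon-induced translation inhibitor, had 179, 165, 78.0 and 102 CPM in Gzma-high cells of the 10 mg/kg, buffer, combination and 1.25 mg/kg libraries, against 98.5, 73.3, 50 and 78.3 CPM in other gate cells (log2 fold change 0.80, edgeR adjusted p 0.0275). Of 28 genes of the interferon gamma response, 1 passed as higher (Gbp3, log2 fold change 0.68, edgeR adjusted p 0.0405) and the median was 0.22. By library the median log2 ratio was 0.31 with 10 mg/kg, 0.54 with buffer, -0.03 with the combination and 0.08 with 1.25 mg/kg. Ifi214, Phf11a and Daxx, which are also induced by interferon, had log2 fold changes of 0.72, 0.85 and 0.70 with edgeR adjusted p of 0.0223, 0.00896 and 0.0304. Of 15 MHC class I genes 0 passed.

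The lists of NK-type receptors, residency and early TCR genes held 1 call each, as higher. Klrk1, which encodes the activating receptor NKG2D, was the called gene among 21 NK-type receptors and adaptors (log2 fold change 0.63). Rgs1, a regulator of G protein signals in resident T cells, was the called gene among 15 residency genes (log2 fold change 0.58), and Icos, a costimulatory receptor, among 22 early genes of TCR signals (log2 fold change 0.54). None of 20 integrin and adhesion genes, 23 AP-1 and heat shock genes, 21 glycolysis genes, 28 oxidative phosphorylation genes or 34 genes of S phase and mitosis passed. The median log2 ratio of the S phase and mitosis list, Gzma-high over other, was 0.63 with the combination and 0.56 with 1.25 mg/kg, and -0.19 with 10 mg/kg and -0.68 with buffer.

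**Figure D2:**
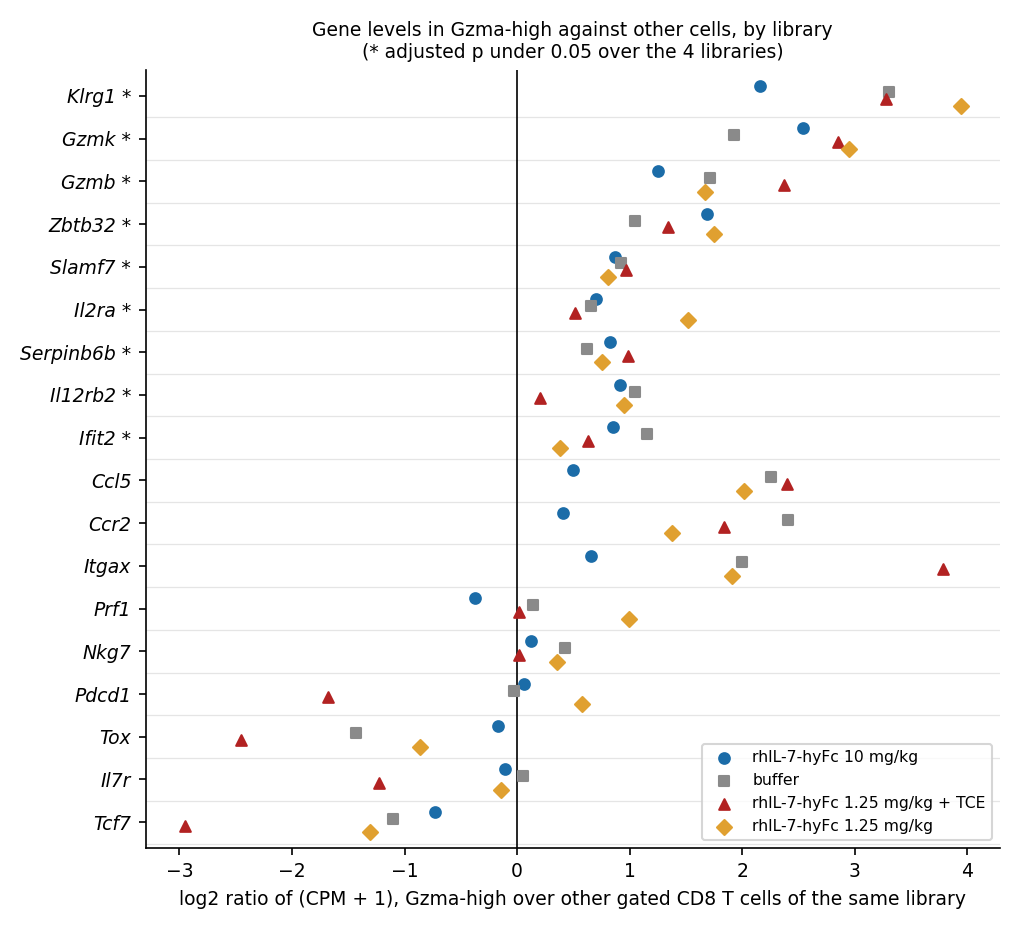
Log2 ratio of (CPM + 1) in Gzma-high over other gate cells (horizontal axis) for named genes, with 1 point per library and a star beside genes that passed the edgeR test. Klrg1, Gzmk and Gzmb lie right of 0 in all 4 libraries, Tcf7 lies left of 0 in all 4, and Pdcd1 lies on both sides.

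Naive and memory genes made up part of the lower side. Of 29 such genes tested, 0 passed as higher and 3 as lower, with a median log2 fold change of -0.47 and 1 higher and 13 lower in all 4 libraries. The 3, named here because they passed, were Actn1, an actin crosslinker, Ramp1, a subunit of the CGRP receptor, and Rflnb, a filamin-binding protein, with log2 fold changes of -1.06, -1.35 and -1.16. Actn1 had 21.4, 25.7, 19.1 and 22 CPM in Gzma-high cells of the 10 mg/kg, buffer, combination and 1.25 mg/kg libraries, against 36.8, 56.9, 45.0 and 51.5 CPM in other gate cells. Tcf7, which encodes TCF-1, was lower in all 4 libraries without passing the test (log2 fold change -1.57, SE 0.50, edgeR adjusted p 0.348). Its CPM was 108, 34.7, 16.3 and 75.3 in Gzma-high cells, against 180, 75.9, 133 and 188 in other gate cells, so that the gap was widest in the combination library. Ribosomal protein genes were lower in all 4 libraries for 28 of 33 tested, with a median log2 fold change of -0.18 and 0 calls.

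Exhaustion genes went different ways in different libraries. Of 23 tested, 0 passed in either direction and the median log2 fold change was -0.21. The list's median ratio, Gzma-high over other, was -0.16 with 10 mg/kg and -0.07 with buffer on the log2 scale, -0.75 with the combination and 0.43 with 1.25 mg/kg. Pdcd1 had 192 CPM in Gzma-high and 618 CPM in other gate cells of the combination library, against 508 and 340 CPM in the 1.25 mg/kg library. In experiment 1 the Pdcd1 levels of Gzma-high and other gate cells were close, at 45.5 and 43.6 CPM with 10 mg/kg and 383 and 392 CPM with buffer (log2 fold change over all 4 libraries -0.25, SE 0.45, edgeR adjusted p 0.912). Of the 23 genes, 3 were higher and 4 lower in Gzma-high cells of all 4 libraries. Tox, a transcription factor of exhausted T cells, was lower in Gzma-high cells of all 4 libraries without passing (log2 fold change -1.43, edgeR adjusted p 0.324). Havcr2, an inhibitory receptor, and Entpd1, an ectonucleotidase, went the other way, also without passing. Over 18 alternative settings their log2 fold changes stayed positive, at 0.42 to 1.8 for Havcr2 and 0.61 to 1.4 for Entpd1. Entpd1 was called in 7 of these settings and Havcr2 in 0. The sign of the list's median turned positive without the combination library and with 1 cell per clonotype.

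The chemokine Ccl5 had the same direction in all 4 libraries and a wide spread. Ccl5 had 4306, 12734, 10548 and 8612 CPM in Gzma-high cells of the 10 mg/kg, buffer, combination and 1.25 mg/kg libraries, against 3043, 2660, 2002 and 2127 CPM in other gate cells. The excess was small with 10 mg/kg and large in the other 3 libraries, and the gene did not pass (log2 fold change 1.84, SE 0.41, edgeR adjusted p 0.236). Of 19 cytokine and chemokine genes, 0 passed. Ccr2, a receptor for CCL2, and Itgax, the integrin CD11c, were likewise higher in Gzma-high cells of all 4 libraries without passing, with log2 fold changes of 1.55 and 2.46 and edgeR adjusted p of 0.246 and 0.3.

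Hspbp1, a cochaperone of HSP70, and Snhg12, a small nucleolar RNA host gene, were the lower genes named by a mean of at least 50 CPM over the libraries in either class. Hspbp1 had 68.4, 24.4, 62.2 and 59.6 CPM in Gzma-high cells of the 10 mg/kg, buffer, combination and 1.25 mg/kg libraries, against 100, 67.0, 94.0 and 106 CPM in other gate cells (log2 fold change -0.73, edgeR adjusted p 0.0371). Transcripts of dendritic cells moved with the lower side of the comparison. Of the 7 dendritic cell markers tested, 0 passed and 4 were lower in Gzma-high cells of all 4 libraries (median log2 fold change -1.61). Their summed level, most of it Bst2 and Ccr7, which T cells also express, was 2162, 1455, 738 and 1364 CPM in Gzma-high cells of the 10 mg/kg, buffer, combination and 1.25 mg/kg libraries, against 1902, 2381, 1356 and 1743 CPM in other gate cells. Ccl22, a chemokine of mature dendritic cells, was at 0 in Gzma-high cells of 3 libraries. Fscn1, the actin bundler of mature dendritic cells, was at 5.14 CPM in Gzma-high and 431 CPM in other gate cells of the buffer library. After barcodes with a UMI of dendritic cell or MHC class II genes were left out, 33 of the 35 higher genes and 17 of the 20 lower genes still tested passed again, and Cxcl16 among those lost changed sign to 0.09.

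The count of calls depended on single libraries. Leaving out the buffer library left 12 genes higher and 5 lower, and leaving out the 1.25 mg/kg library left 10 and 10, whereas leaving out the combination gave 86 and 27 and leaving out the 10 mg/kg library gave 69 and 110. Called in each of these 4 fits were 9 higher genes (Klrg1, Gzmk, Car5b, Zbtb32, D1Ertd622e, Fhl2, Slamf7, Phf11a and Serpinb6b) and 4 lower genes (Actn1, Bmyc, Cd200 and Gm156), which are named because they met this condition. Every other call, Gzmb included, was lost in at least 1 of these fits or could not be tested in it. Whether the class difference itself differed between experiments was tested as an interaction, which called 5 genes (0.0457%). Among them Mcm3, a subunit of the replicative helicase, had 84.8 and 68.0 CPM in Gzma-high cells of the combination and 1.25 mg/kg libraries against 47.4 and 39.7 CPM in other gate cells. In experiment 1 it had 18.0 and 38.6 CPM in Gzma-high cells of the 10 mg/kg and buffer libraries against 30.8 and 73.9 CPM in other gate cells. The interaction was 1.60 on the log2 scale (edgeR adjusted p 0.03). With cells thinned to 4000 UMIs, and likewise at a threshold of 5 Gzma UMIs, edgeR called 0 genes in this test, with 478 and 418 genes at an unadjusted p under 0.05.

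Levels also followed Gzma in steps within libraries. In the combination library, across 7 bins of cells between 0 and at least 100 Gzma UMIs, Gzmb was 1084 CPM in the lowest bin and 8206 CPM in the highest. Gzmk was 43.2 and 533 CPM in these bins, and Klrg1 2.82 and 71.2 CPM. Tcf7 ran the other way, with 139 CPM in the lowest bin and 6.91 CPM in the highest. Pdcd1 was 634 CPM in cells without Gzma and 175 CPM in cells with at least 100 UMIs, but in the 1.25 mg/kg library it was 353 CPM in cells without Gzma and 596 CPM in the 21 cells with 50 to 99 UMIs. In the 10 mg/kg library Ccl5 was 2945 CPM in cells without Gzma and 3778 CPM in those with 20 to 49 UMIs, whereas Gzmb was 1622 and 5339 CPM. Median depth moved with these bins in the combination library, from 5281 UMIs per cell in the lowest bin to 8759 in the highest, and its part in the values was not tested. Just inside the threshold, at 10 to 12 Gzma UMIs, Gzmk was 234 CPM in the 69 cells of the combination library, and just outside it, at 7 to 9 UMIs, 97.6 CPM in 96 cells. The same 2 Gzmk values were 123 and 71.4 CPM in 42 and 66 cells with 1.25 mg/kg, 46.2 and 19.8 CPM in 71 and 98 cells with 10 mg/kg, and 487 and 235 CPM in 10 and 23 cells with buffer. Gzmb just inside and just outside was 4730 and 3347 CPM with the combination, 3634 and 3337 CPM with 1.25 mg/kg, and 3972 and 3427 CPM with 10 mg/kg, but 4312 and 4972 CPM with buffer.

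**Figure D3:**
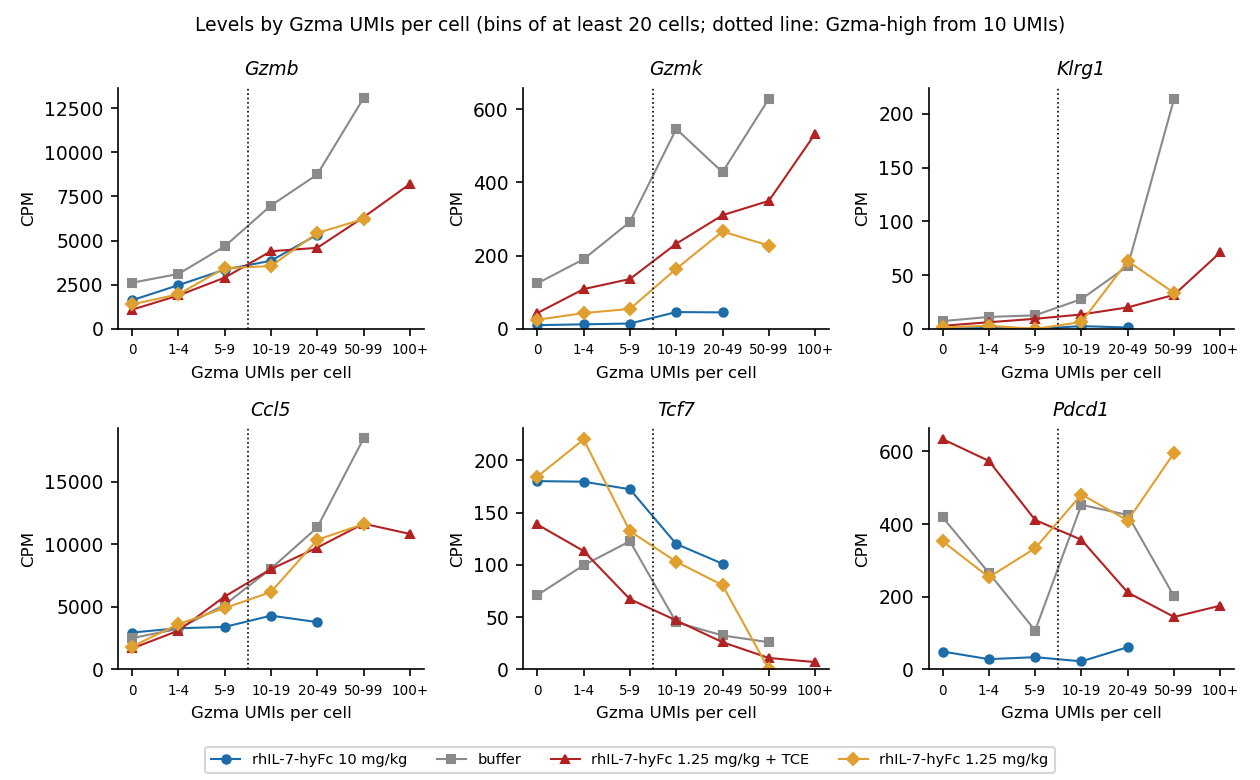
CPM of 6 genes (vertical axes) against Gzma UMIs per cell (horizontal axes, bins of at least 20 cells), with 1 line per library and a dotted line at the threshold of 10 UMIs. Gzmb is higher in each successive bin in each library, Gzmk is higher and Tcf7 lower in the highest bin than at 0 in each library, and Pdcd1 follows no common direction.

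How the Gzma-high cells themselves differed between treatments could be described but not tested, since each group is 1 library. A gene was counted when its CPM differed at least 1.5-fold and reached 20 CPM in 1 of the libraries compared. In experiment 1, 399 of 5059 genes were higher (7.89%) and 989 lower (19.5%) in Gzma-high cells with rhIL-7-hyFc at 10 mg/kg than with buffer, with a median log2 ratio of -0.16. With TMM scaling factors the counts were 742 higher and 597 lower.

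With 10 mg/kg, Gzma-high cells had a higher level of naive and memory genes than with buffer. Of 21 such genes measured, 14 were higher and 0 lower, with a median log2 ratio of 0.72 in Gzma-high cells and 0.83 in other gate cells. Tcf7 had 108 CPM with 10 mg/kg and 34.7 CPM with buffer, a ratio of 3.12 (2.10 to 4.81), and a ratio of 2.37 in other gate cells. Of the genes with the highest ratios, Dapl1 (58.6 CPM with 10 mg/kg and 5.14 CPM with buffer) rested on 4 UMIs in the buffer library and Nsg2 (91.7 and 3.86 CPM in the same order) on 3, while Treml2, a receptor of the TREM family, had 122 CPM with 10 mg/kg and 27.0 CPM with buffer. Ccr7, the lymph node homing receptor, had 701 CPM with 10 mg/kg and 228 CPM with buffer in Gzma-high cells, and its ratio in other gate cells was 1.03. Those other cells differed in transcripts of dendritic cells, which also express Ccr7. Fscn1 had 4.24 CPM in them with 10 mg/kg and 431 CPM with buffer, and the part of such transcripts in the Ccr7 ratio was not tested. Il7r, the receptor chain for IL-7, had 177 CPM with 10 mg/kg and 179 CPM with buffer, a ratio of 0.990 (0.818 to 1.21). Of 38 genes of the type I interferon response 7 were higher and 0 lower (median log2 ratio 0.28, and 0.42 in other gate cells).

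Exhaustion and effector genes lay on the lower side in experiment 1. Of 19 exhaustion genes 0 were higher and 16 lower (median log2 ratio -2.04, and -2.42 in other gate cells), and of 25 effector genes 0 were higher and 14 lower (median -0.86, and -0.54 in other gate cells). Pdcd1 had 45.5 CPM in Gzma-high cells with 10 mg/kg and 383 CPM with buffer, a ratio of 0.119 (0.0953 to 0.147). Gzmk had 67.3 CPM with 10 mg/kg and 523 CPM with buffer, a ratio of 0.129 (0.107 to 0.154). Gzmb differed far less, with 4529 CPM with 10 mg/kg and 8966 CPM with buffer and a ratio of 0.505 (0.490 to 0.520). Ccl5 had 4306 CPM with 10 mg/kg and 12734 CPM with buffer, a ratio of 0.338 (0.329 to 0.347), whereas the ratio in other gate cells was 1.14. Klrg1 had 4.89 CPM with 10 mg/kg and 86.1 CPM with buffer, a ratio of 0.0567 (0.0287 to 0.104), and Prf1 had 54.1 CPM with 10 mg/kg and 392 CPM with buffer, a ratio of 0.138. Thus Gzma-high cells of both libraries carried Gzmb, while the levels of Gzmk, Klrg1, Prf1 and Pdcd1 were several times lower with 10 mg/kg. The lowest ratio of a named gene was that of Ccl3, an inflammatory chemokine (4.13 CPM with 10 mg/kg and 558 CPM with buffer), of which the highest single buffer cell held 55.8% of the UMIs. Macrophage markers were lower with 10 mg/kg too, for 7 of 9 measured and 0 higher (median -2.49, and -3.40 in other gate cells), and their part in these ratios was not tested.

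**Figure D4:**
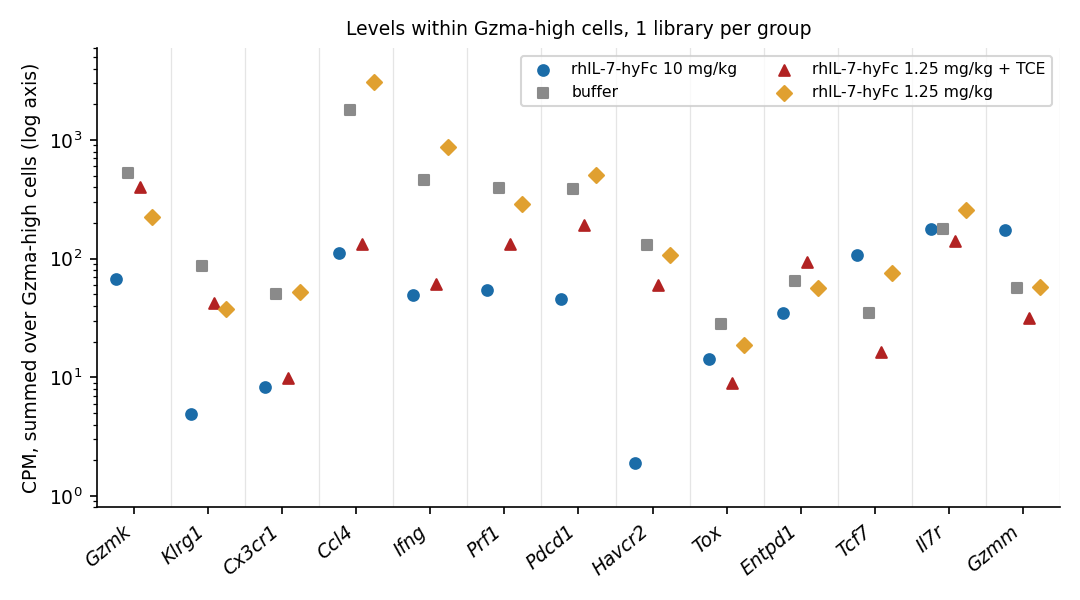
CPM in Gzma-high cells (vertical axis, logarithmic) for 13 named genes, with 1 point per library and no replicates. Ccl4 and Ifng lie lower with 10 mg/kg than with buffer and lower with the combination than with 1.25 mg/kg alone, while Tcf7 is highest with 10 mg/kg at 108 CPM.

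In experiment 2, 429 of 5496 genes were higher (7.81%) and 486 lower (8.84%) in Gzma-high cells with the combination than with rhIL-7-hyFc at 1.25 mg/kg alone, with a median log2 ratio of 0.02. Gzmk was higher and Gzmm lower. Gzmk had 400 CPM with the combination and 223 CPM with 1.25 mg/kg, a ratio of 1.80 (1.57 to 2.07), and other gate cells had a ratio of 1.96. Gzmb had 6468 CPM with the combination and 4822 CPM with 1.25 mg/kg, a ratio of 1.34 (1.30 to 1.38) that stayed under the 1.5-fold mark, with 0.829 in other gate cells. Gzmm had 31.6 CPM with the combination and 57.5 CPM with 1.25 mg/kg (ratio 0.549, 0.414 to 0.741), against a ratio of 0.246 in other gate cells. Klrg1 had 42.4 CPM with the combination and 37.6 CPM with 1.25 mg/kg (ratio 1.13, 0.805 to 1.63). Itgax was higher, with 68.7 CPM with the combination and 36.6 CPM with 1.25 mg/kg (ratio 1.88, 1.34 to 2.71), against a ratio of 0.452 in other gate cells. Entpd1, the ectonucleotidase CD39, had 92.9 CPM with the combination and 56.5 CPM with 1.25 mg/kg (ratio 1.65). The highest ratio of a named gene was that of Wdr95, at 185 CPM with the combination and 38.7 CPM with 1.25 mg/kg (ratio 4.77, 3.45 to 6.79), against 2.12 in other gate cells. Ass1, an enzyme of arginine synthesis, had a ratio of 2.17 in Gzma-high cells and 0.982 in other gate cells.

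The lower side in experiment 2 was led by secreted cytokines and chemokines. Of 18 measured, 0 were higher and 15 lower, with a median log2 ratio of -2.59 in Gzma-high cells and -0.08 in other gate cells. Ifng, the effector cytokine interferon gamma, had 61.1 CPM in Gzma-high cells with the combination and 875 CPM with 1.25 mg/kg, a ratio of 0.0699 (0.0634 to 0.0770), and 1.04 in other gate cells. Ccl4, another inflammatory chemokine, had 133 CPM with the combination and 3097 CPM with 1.25 mg/kg, a ratio of 0.0429 (0.0404 to 0.0455), and 0.626 in other gate cells. Xcl1, a chemokine that attracts cross-presenting dendritic cells, had 21.9 CPM with the combination and 760 CPM with 1.25 mg/kg, against a ratio of 0.787 in other gate cells. Early genes of TCR signals were lower for 12 of 18 and higher for 0 (median -0.85, and 0.09 in other gate cells). Of the AP-1 and heat shock list, 14 of 21 were lower and 0 higher (median -0.78, and -0.22 in other gate cells).

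A few cells carried most of these cytokine transcripts in the 1.25 mg/kg library. The 10 highest of its 165 Gzma-high cells held 82.7% of the Ifng UMIs, 84.2% of the Ccl4 UMIs, 95% of the Ccl3 UMIs and 85.1% of the Xcl1 UMIs. In the combination library the 10 highest of 1786 cells held 16.4% of the Ifng, 28.8% of the Ccl4, 68.3% of the Ccl3 and 30.6% of the Xcl1 UMIs. There 10 cells are a smaller part of the class, so the percentages of the libraries are not like for like. The share of cells with any such transcript differed by less than the CPM did. An Ifng UMI was seen in 421 of 1786 Gzma-high cells (23.6%) with the combination and 63 of 165 (38.2%) with 1.25 mg/kg, and after thinning in 15% with the combination and 29.4% with 1.25 mg/kg. A Ccl4 UMI was seen after thinning in 18.2% of Gzma-high cells with the combination and 41.3% with 1.25 mg/kg. Among myeloid barcodes it was seen in 23.1% with the combination and 68.6% with 1.25 mg/kg, so the Ccl4 shares of Gzma-high cells were below those of myeloid barcodes. For Ifng the myeloid shares were 0% with the combination and 0.410% with 1.25 mg/kg.

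Exhaustion and memory genes in experiment 2 also differed between the classes of cell. Of 17 exhaustion genes, 1 was higher and 9 lower in Gzma-high cells (median log2 ratio -0.84), while the median in other gate cells was 0.54. Pdcd1 had 192 CPM in Gzma-high cells with the combination and 508 CPM with 1.25 mg/kg, a ratio of 0.378 (0.343 to 0.417), against a ratio of 1.82 in other gate cells. Tcf7 had 16.3 CPM with the combination and 75.3 CPM with 1.25 mg/kg, a ratio of 0.216 (0.165 to 0.286), and 0.708 in other gate cells. Il7r had 141 CPM with the combination and 258 CPM with 1.25 mg/kg (ratio 0.548), and a ratio of 1.16 in other gate cells. The low values were not limited to exhaustion and memory genes. Prf1 had 133 CPM with the combination and 292 CPM with 1.25 mg/kg (ratio 0.458), and a ratio of 0.902 in other gate cells. Cx3cr1, the fractalkine receptor, had 9.78 CPM with the combination and 52.3 CPM with 1.25 mg/kg (ratio 0.187, 0.134 to 0.264). Relative to Gzma-high cells of the 1.25 mg/kg library, those of the combination library thus had more Gzmk and less Prf1, Tcf7 and Pdcd1 when summed. Their make-up by clone differed too. Among Gzma-high cells with a TCR, 93.4% with the combination and 55.6% with 1.25 mg/kg had a TCR found once. Levels by clone size in the combination library are given below. Of 38 genes of the type I interferon response 0 were higher and 9 lower (median log2 ratio -0.36, and -0.38 in other gate cells). Macrophage markers were lower for 4 of 9 measured and higher for 0 (median -0.52, and -1.92 in other gate cells), and their part in these ratios was not tested.

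The TCR, which the rule did not use, showed where the Gzma-high cells sat among clones. A clonotype was the set of productive TRA and TRB CDR3 nucleotide sequences of a cell with their V and J genes, and its size was its number of gate cells in the library. A TCR with a TRB chain was found for 94.8% of Gzma-high cells with 10 mg/kg, 90.7% with buffer, 75.3% with the combination and 75.2% with 1.25 mg/kg. In the combination library 57 of 1345 Gzma-high cells (4.24%, 3.23 to 5.46%) belonged to clonotypes of at least 5 cells, against 32.3% (30.9 to 33.9%) of other gate cells. With 1.25 mg/kg alone the order was turned, with 42 of 124 Gzma-high cells (33.9%, 25.6 to 42.9%) against 16.6% (15.5 to 17.8%) of other gate cells. With buffer the shares were 27.1% and 26.5%, and with 10 mg/kg 0.418% and 0.926%. Over the 4 libraries the difference, Gzma-high minus other, averaged -2.69 percentage points (SD 18.8, n = 4), which did not pass an exact two-sided sign-flip permutation test (p = 0.875, the smallest that 4 libraries can give being 0.13). Without the combination library the mean was 5.78 percentage points.

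Seen the other way, among cells with a TCR the higher Gzma-high share of the combination library was in those whose TCR was found once. Of 3355 such cells 1256 were Gzma-high (37.4%, 35.8 to 39.1%) with the combination, against 69 of 3050 (2.26%, 1.76 to 2.85%) with 1.25 mg/kg, a ratio of 16.5 (13 to 21.4). In clonotypes of at least 5 cells the Gzma-high share was 4.42% with the combination and 6.03% with 1.25 mg/kg, a ratio of 0.732 (0.483 to 1.12). Cells with a TCR found once held 93.4% of the combination library's Gzma-high cells with a TCR and 55.6% of those with 1.25 mg/kg. With the combination and with 1.25 mg/kg, the Gzma-high shares of such singletons were 38.3% and 2.15% when clonotypes were defined by TRB alone, 41.7% and 3.59% after thinning, and 36.7% and 2.15% in cells with exactly 1 productive TRB chain. Gate cells without a TCR also differed, with 441 of 1427 Gzma-high (30.9%, 28.5 to 33.4%) in the combination library and 41 of 1168 (3.51%, 2.53 to 4.73%) in the 1.25 mg/kg library. More than 1 TRB chain was found in 8.10% of Gzma-high and 7.55% of other gate cells with a TCR in the combination library, and in 12.1% and 6.76% in the 1.25 mg/kg library. In experiment 1 this share was 12.6% of Gzma-high and 7.56% of other gate cells with 10 mg/kg, and 5.61% and 7.22% with buffer. The median Gzma-high cell with more than 1 TRB chain held 9599 UMIs in the combination library, against 7044 with 1 chain, and the part of doublets in these values was not tested beyond the alternative with exactly 1 TRB chain. In experiment 1, Gzma-high cells made up 5.50% of singletons with 10 mg/kg and 5.85% with buffer (ratio 0.941, 0.679 to 1.33). In clonotypes of at least 2 cells they made up 7 of 126 (5.56%) with 10 mg/kg and 63 of 518 (12.2%) with buffer. The ratio was 0.457 (0.176 to 0.997). In clonotypes of at least 5 cells they made up 1 of 39 (2.56%) with 10 mg/kg and 29 of 337 (8.61%) with buffer. The ratio there was 0.298 (0.0073 to 1.80). Of the buffer cells 11 belonged to 1 clonotype, and these intervals count cells of a clonotype as independent.

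**Figure D5:**
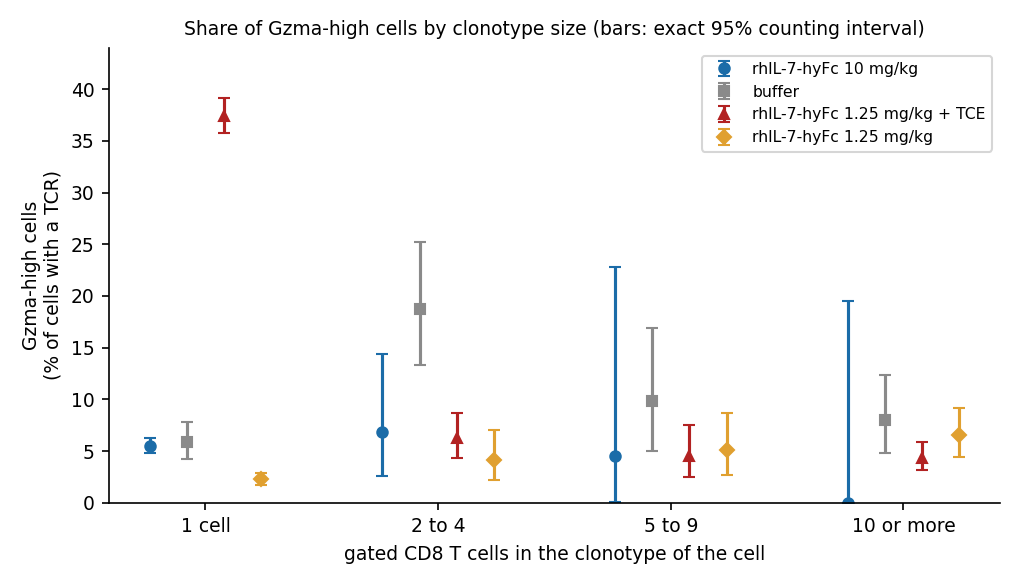
Percent of cells that were Gzma-high (vertical axis) by clonotype size in gate cells (horizontal axis: 1, 2 to 4, 5 to 9, and at least 10 cells), 1 point per library, with bars for exact 95% binomial intervals. The combination library is at 37.4% among cells whose TCR was found once and between 4.38% and 6.23% in larger clonotypes.

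Gzma-high cells of the combination library with a TCR found once differed in expression from those in clonotypes of at least 5 cells. Pdcd1 was 126 CPM in the 1256 Gzma-high singletons and 203 CPM in the 2099 other singletons, against 1113 CPM in the 57 Gzma-high and 1176 CPM in the 1234 other cells of clonotypes of at least 5. Tcf7 was 16.4 CPM in Gzma-high and 221 CPM in other singletons, and 0 and 23.4 CPM in the larger clonotypes. Gzmb was 6877 and 1402 CPM in Gzma-high and other singletons, and 3076 and 1201 CPM in the larger clonotypes. Pdcd1 thus went with clonotype size in both classes, and low Tcf7 with Gzma in both size classes. Prf1, Tox and Havcr2 (TIM-3, an inhibitory receptor) were 121, 4.16 and 54.4 CPM in Gzma-high singletons, against 408, 61.3 and 207 CPM in Gzma-high cells of the larger clonotypes. The median Gzma-high singleton held 71 Gzma UMIs and the median Gzma-high cell of the larger clonotypes 26.

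Most cells of large clonotypes were below the Gzma threshold, as were most gate cells. In clonotypes of at least 10 cells the Gzma-high share was 4.38% with the combination, 6.54% with 1.25 mg/kg and 8% with buffer. In all gate cells it was 27.1%, 3.16% and 6.64% in the same order, so it was below that of the gate with the combination alone of these libraries. Of 44 clonotypes with at least 10 cells in the combination library, 25 held none, and the highest share in one was 20%. With 1.25 mg/kg 13 of 24 held none (highest 23.5%), and with buffer 5 of 10 held none (highest 55.0%). The clonotype with the most Gzma-high cells in each of these 3 libraries is printed here by its TRA and TRB CDR3, since these sequences identify the clones that the counts describe. They are shown 5′ to 3′ as in the deposited TCR tables, with capitals for the bases between the first and the last codon. TRA lies on chromosome 14 and TRB on chromosome 6. In the combination library it held 15 Gzma-high cells of 186 and used TRAV7N-6 with TRAJ30 and TRBV16 with TRBJ2-5. With 1.25 mg/kg it held 7 of 44 and used TRAV8D-1 with TRAJ7 and, again, TRBV16 with TRBJ2-5. With buffer it held 11 of 20 and used TRAV6-5 with TRAJ31 and TRBV10 with TRBJ2-1.
combination TRA: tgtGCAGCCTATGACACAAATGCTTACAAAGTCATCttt
combination TRB: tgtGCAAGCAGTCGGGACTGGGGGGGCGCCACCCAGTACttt
1.25 mg/kg TRA: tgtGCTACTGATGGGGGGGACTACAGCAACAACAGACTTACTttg
1.25 mg/kg TRB: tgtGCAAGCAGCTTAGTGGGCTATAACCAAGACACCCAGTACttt
buffer TRA: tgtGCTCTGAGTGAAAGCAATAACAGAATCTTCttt
buffer TRB: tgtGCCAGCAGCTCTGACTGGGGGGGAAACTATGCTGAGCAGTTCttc
The combination and buffer clones thus had most of their cells on different sides of the Gzma threshold. Of all clonotypes with a Gzma-high cell, 1 was shared between libraries, the combination and 1.25 mg/kg.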

How the data were processed

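Per the labels' protocols, CD8 T cells of digested MC38 tumours were profiled with 10x Genomics 5′ v2 expression and V(D)J v2 TCR kits. The authors deposited raw UMI counts per gene and barcode and TCR contig tables with read and UMI counts per contig. Per the file headers, Cell Ranger 4.0.0 made the matrices of experiment 1, which list 31053 genes, and version 6.1.2 those of experiment 2, which list 32285. The submitters' processing notes name GRCm38. Totals ranged from 47308214 to 118191371 UMIs per library, and 30406 gene IDs shared by both versions were used. Members and gene lists were chosen with earlier results of these data known.

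Counts were summed over the 2 classes in each of 4 libraries (8 sums) and tested with edgeR 4.0.16 (TMM, filterByExpr, quasi-likelihood, library as block because both classes come from the same library, Benjamini-Hochberg over all genes tested). P-values measure the spread between these libraries, which differ in treatment. Comparisons between treatments have 1 library per group and no test. Shares have exact Clopper-Pearson intervals at 95%, ratios exact conditional intervals. Doublets were not called, and an alternative kept cells with exactly 1 TRB chain. The fit was checked on simulated counts. Named genes were the 15 highest and 15 lowest called genes reaching 50 CPM with 1 sign in all libraries, the 3 with the largest fold change in each of 32 lists, the 8 highest and lowest within each experiment, genes of the interaction, and 23 always named. Together with the 17 genes of the gate and threshold, and without those named within each experiment, 124 of 124 matched the GRCm38 annotation. Alternatives covered the scaling, count filter, Gzma threshold, thinning to 4000 UMIs, clonotypes, chains, cycling and myeloid cells, DESeq2 1.42.0, and each library left out. The alternative without dendritic cell transcripts and the checks of clonotype definition were added after seeing the data. Values of a few genes are not reported here.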

Additional observations from a re-analysis of the deposited data

Results flagged for a closer look

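The difference between Gzma-high and other gate cells was larger in experiment 2 than in experiment 1 for Mcm3, by 1.60 on the log2 scale, and for Stmn1, a microtubule regulator of dividing cells, by 1.55 (edgeR interaction, adjusted p 0.03 for both). Stmn1 had 123 and 91.0 CPM in Gzma-high cells of the combination and 1.25 mg/kg libraries, against 56.1 and 50.3 CPM in other gate cells, and 26.7 and 64.3 CPM in Gzma-high cells of the 10 mg/kg and buffer libraries, against 39.8 and 99.8 CPM in other gate cells. Neither was called with cells thinned to 4000 UMIs.

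Cycling CD8 T cells, which the gate leaves out, also held at least 10 Gzma UMIs. In the combination library 559 of 996 did (56.1%, 53.0 to 59.2%), against 17 of 450 (3.78%) with 1.25 mg/kg. In experiment 1, 32 of 408 did (7.84%, 5.43 to 10.9%) with 10 mg/kg, against 7 of 311 (2.25%) with buffer. Cycling barcodes were deeper than gate cells. Their median UMIs were 11332.5 against 5760 with the combination and 10044 against 4960 with 1.25 mg/kg. In experiment 1 they were 16132 against 9187 with 10 mg/kg and 12255 against 6572 with buffer. The part of depth in these shares was not tested.

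The share of cells in clonotypes of at least 5 cells, Gzma-high minus other, had opposite signs within both experiments. It was -28.1 percentage points with the combination and 17.2 with 1.25 mg/kg, and -0.508 with 10 mg/kg and 0.620 with buffer. The difference between groups was not tested.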

How the results depend on the processing

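The genes called higher and lower numbered 65 and 106 with no filter on low counts, 125 and 43 with DESeq2, 62 and 45 at 5 Gzma UMIs, 80 and 99 at 20, 146 and 111 after thinning, 109 and 54 with 1 cell per clonotype, and 14 and 13 with cycling cells kept. Leaving out 1 library gave 10 to 86 higher and 5 to 110 lower. Of the 61 calls, those tested kept their sign in every alternative except 1 without dendritic cell transcripts. Higher genes made up 57.4% of the calls, but 38.0% with no filter, 44.7% at 20 Gzma UMIs, 74.4% with DESeq2, 76.1% without the combination and 38.5% without the 10 mg/kg library. Without the replicate block, which pairs the classes of a library, edgeR called 0 and 0, with 436 genes at an unadjusted p under 0.05. The interaction called 58 genes with no filter, 14 at 20 Gzma UMIs, and 0 at 5 and after thinning.

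The ratio of shares in experiment 1 was 1.08 at 5 Gzma UMIs, 0.496 at 20, 0.580 after thinning, 0.646 at 1000 CPM and 0.610 with exactly 1 TRB chain, so that its direction depended on the threshold. In experiment 2 it was 5.23 at 5, 15.8 at 20, 5.19 at 1000 CPM and 14.6 with each clonotype counted once. Genes higher and lower within experiment 1 numbered 742 and 597 with TMM factors, 993 and 2156 from 5 CPM, and 190 and 429 from 50 CPM. Within experiment 2 they numbered 1092 and 1173 from 5 CPM, and 155 and 251 from 50 CPM. Mcm5 within experiment 1 changed sign at 20 Gzma UMIs, to 0.18 on the log2 scale.

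The mean difference in clonotype share was 0.392 percentage points (exact p 0.875) with clonotypes of at least 2 cells, and between -9.33 and 5.78 with 1 library left out, the highest without the combination. The cause of these changes was not tested. Of the single-gene values, 301 moved, 98 gained a call, 65 lost one and 1 called value reversed. Values without a call can also change sign, as Osgin1 did (0.19 with 1 cell per clonotype). Intervals cover counting error only, and each treatment is 1 library.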

Other observations

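Genes beside Gzma on chromosome 13 were looked at after their values were seen. Cdc20b, which ends 2630 bp from Gzma on the opposite strand, had 35 UMIs in Gzma-high and 0 in other gate cells of the combination library, and 5 and 1 with 1.25 mg/kg. Gpx8, 47415 bp away on the strand of Gzma, had 88 UMIs in Gzma-high and 0 in other gate cells of the combination library, and 1 and 2 with 1.25 mg/kg. Both were at 0 to 4 UMIs in either class of the 10 mg/kg and buffer libraries. The levels of Cdc20b and Gpx8 were too low for the paired test. Of the protein-coding genes within 1 Mb of Gzma that were tested, Gzmk and Esm1 passed. Il6st, Slc38a9, Mtrex, Dhx29, Ccno, Snx18 and Arl15 did not, with log2 fold changes from -0.11 (Slc38a9) to 0.44 (Ccno).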
